A study of Papio anubis with 12 samples.

Results

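The miR-181 family was followed by small RNA sequencing of fetal frontal cortex from the baboon Papio anubis, 1 library for each of 12 fetuses at gestation day 165. The 6 MNR fetuses came from mothers under nutrient restriction, who were given 70% of what control mothers ate for each kilogram of body weight. The 6 control fetuses came from mothers with free access to the same feed. Replicates 1 to 3 of a diet were female and replicates 4 to 6 male. The labels name no mother, litter or batch, so the p-values measure the spread between these libraries. The members were all entries of the deposited miRNA table whose precursor was hsa-mir-181a-1, hsa-mir-181a-2, hsa-mir-181b-1, hsa-mir-181b-2, hsa-mir-181c or hsa-mir-181d, where hsa marks the human reference name. These 6 hairpins, of 1527 in the table, gave 10 of the 2234 entries and 8 of the 1921 mature miRNA names. For a mature miRNA listed under 2 hairpins, the entry with most reads was used.

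A miRNA hairpin is cut into a duplex, of which the strand that enters Argonaute in excess is called the guide and the other strand, usually degraded, the passenger. The guide finds its messenger RNAs mainly through its seed, the bases near its 5′ end. All miR-181 guides lie on the 5p arm and share their seed, so they can act on overlapping targets. In the human genome the hairpins form 3 clusters: mir-181a-1 with mir-181b-1, mir-181a-2 with mir-181b-2, and mir-181c with mir-181d. In mouse thymocytes miR-181a tunes the strength of T cell receptor signalling. In rodent brain, work on the family has dealt with glutamate receptors at synapses and with the response of astrocytes to ischaemia.

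The libraries held 1078720 to 1464660 counted reads in MNR and 513029 to 1898763 in controls, so that a single read was worth 0.683 to 0.927 RPM (reads per 1000000 counted reads) in MNR and 0.527 to 1.95 RPM in controls. Reads are not tagged as single molecules, so limits for low values cover counting error only. A set of 12 neuronal miRNAs summed to 109169 to 130590 RPM in MNR and 95663 to 122151 RPM in controls, and none was at 0; miR-129-5p was called higher in MNR (limma, as below) and the rest were not called. The 6 leukocyte miRNAs summed to 362 to 921 RPM in MNR and 488 to 554 RPM in controls (0 called), which bears on the family because lymphocytes express it too, and the 4 erythroid ones to 3114 to 5704 RPM and 2164 to 3920 RPM, with miR-451a called higher in MNR. The 4 vessel miRNAs summed to 16586 to 48141 RPM in MNR and 24141 to 37141 RPM in controls, and the 3 oligodendrocyte miRNAs to 305 to 495 RPM and 228 to 352 RPM. The 4 hindbrain HOX miRNAs, of which miR-196a-5p was at 0, summed to 426 to 2205 RPM in MNR and 699 to 7729 RPM in controls. The 2 liver miRNAs summed to 322 to 509 RPM and 240 to 450 RPM, with miR-122-5p called lower in MNR, and the 3 muscle miRNAs to 85.1 to 311 RPM and 92.8 to 131 RPM. No vessel, oligodendrocyte, HOX or muscle miRNA was called, and the part of these markers in the results on the family was not tested. Of 25 alternatives in processing, miR-129-5p was called in 8, miR-451a in 24 and miR-122-5p in 11. miR-122-5p did not reach a mean of 10 RPM, and the filter at 10 RPM and DESeq2 gave it no adjusted p. Its log2 difference between diets was -0.64 with a pseudocount of 5 and -4.15 with a pseudocount of 0.1. Control replicate 6, the shallowest library, held the highest HOX sum, and in control replicate 3 a single miRNA, miR-26a-5p, stood at 148140 RPM, where its median was 38152 RPM over MNR fetuses and 69342 RPM over control fetuses.

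The family held a large share of the miRNA reads of the fetal cortex. With each mature name counted once, its 8 mature miRNAs took 16.2 ± 1.93% of the reads of MNR fetuses and 15.6 ± 2.93% of those of control fetuses (SD, n = 6 a diet). A single guide, miR-181a-5p, took 12.9 ± 1.60% in MNR and 12.3 ± 2.37% in controls. It averaged 72900 ± 10692 RPM over the 12 fetuses, rank 2 of all names behind miR-9-5p at 77358 RPM. miR-181c-5p followed at rank 11 with 10503 ± 1578 RPM, miR-181b-5p at rank 32 with 3572 ± 499 RPM and miR-181d, which the table lists without an arm, at rank 44 with 1888 ± 279 RPM (SD, n = 12). One read stands for 1 mature strand, so these levels do not depend on length; differences in ligation between sequences were not tested.

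Passengers were less abundant than guides, and their mean levels ran from rank 53 down to rank 304. miR-181c-3p averaged 1496 ± 291 RPM (rank 53) and miR-181a-3p, the passenger of mir-181a-1, 1473 ± 265 RPM (rank 54). miR-181a-2-3p, the passenger of mir-181a-2, stood at 137 ± 32.1 RPM (rank 145), and miR-181b-3p at 15.0 ± 5.46 RPM (rank 304, SD, n = 12). miR-181b-3p rested on 4 to 34 reads per library, while every other member had at least 71. miR-4262, a human miRNA known to share the seed, had 0 reads in all 12 libraries, which allows up to 1.58 to 5.85 RPM per library at a floor of 3 reads.

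The order of levels was nearly the same in every fetus. In 6 of the 7 pairs of neighbours in that order the upper member lay above the lower in 12 of 12 fetuses (exact sign-flip permutation test, two-sided, adjusted p = 0.000570 over 7 pairs). The order was taken from the mean levels of these same 12 fetuses. With 12 of 12 fetuses in the same order, the test gives its lowest possible p-value, whatever the spread between fetuses. The p-value is therefore no independent support for the order. Within a fetus miR-181a-5p was 6.94 times miR-181c-5p, miR-181c-5p 2.94 times miR-181b-5p, and miR-181b-5p 1.89 times miR-181d (geometric means). miR-181d was 1.27 times miR-181c-3p. The exception was the pair miR-181c-3p and miR-181a-3p, whose mean log2 ratio was 0.019 ± 0.117 (SD, n = 12), with miR-181c-3p higher in 8 of 12 fetuses (exact sign-flip permutation test, adjusted p = 0.580). miR-181a-5p made up 78.0 to 80.2% of family reads in the 12 fetuses, while its own level spanned 47458 to 83762 RPM. miR-181c-5p made up 10.2 to 13.3% of family reads, miR-181b-5p 3.01 to 4.78% and miR-181d 1.72 to 2.36%.

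**Figure D1:**
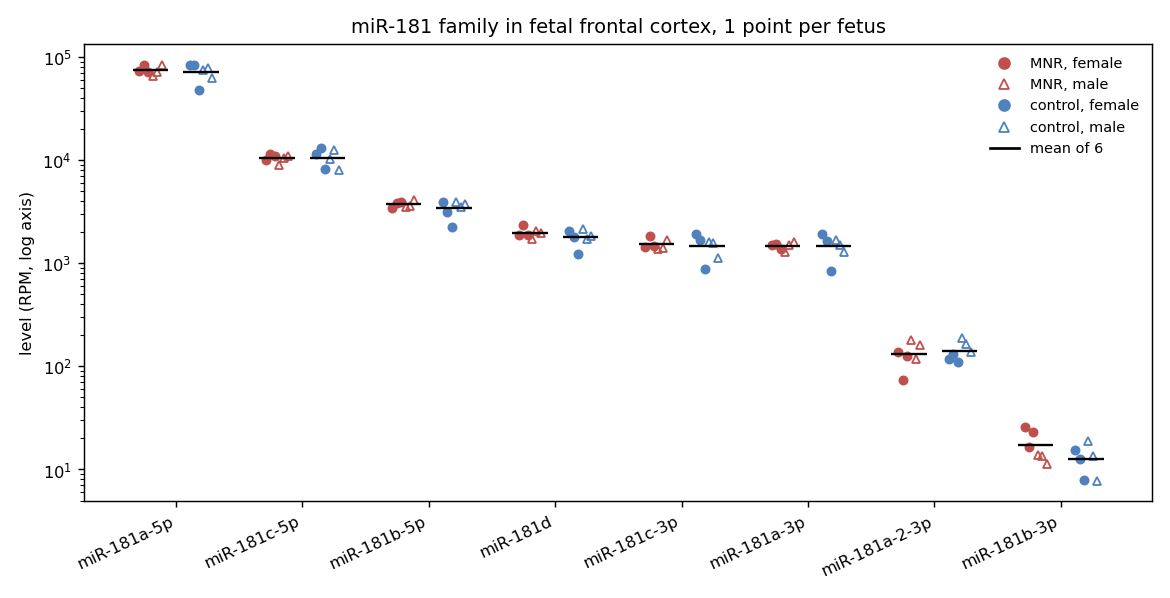
Levels of the 8 miR-181 members in RPM on a log axis, with 1 point per fetus (filled circles female, open triangles male), MNR left of control, and a line at the mean of 6. The members span from about 15.0 RPM (miR-181b-3p) to 72900 RPM (miR-181a-5p) on average, and the points of both diets overlap for every member. The share of all tested miRNAs whose diets overlap was not computed.

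The comparison of diets asked whether the family differs in the cortex of fetuses whose mother was restricted. No member passed the test used. miR-181a-5p had a lowest, median and highest level of 65556, 72158 and 83762 RPM in MNR and 47458, 76107 and 83123 RPM in controls. miR-181c-5p had 8886, 10723 and 11529 RPM in MNR and 8031, 10788 and 12945 RPM in controls. For both guides the diets overlapped and the control fetuses were the more spread. The share of all tested miRNAs whose diets overlap was not computed, so overlap cannot be read as a trait of the members.

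The other guides also overlapped between diets. miR-181b-5p had a lowest, median and highest level of 3458, 3717 and 4080 RPM in MNR and 2240, 3626 and 3952 RPM in controls. miR-181d had 1733, 1937 and 2347 RPM in MNR and 1214, 1817 and 2152 RPM in controls, and the diets overlapped. In each of these 2 guides the highest fetus was an MNR one and the lowest was control replicate 3.

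Among the passengers, miR-181a-3p had 1290, 1506 and 1608 RPM in MNR and 841, 1570 and 1911 RPM in controls. miR-181c-3p had 1360, 1459 and 1844 RPM in MNR and 884, 1577 and 1913 RPM in controls. In both, every MNR fetus lay within the range of the control fetuses. miR-181a-2-3p had 74.4, 133 and 180 RPM in MNR and 110, 135 and 188 RPM in controls, with MNR replicate 2 the lowest of all fetuses. miR-181b-3p had 11.3, 15.2 and 25.7 RPM in MNR and 7.80, 13.0 and 19.04 RPM in controls. Out of 6 MNR fetuses, the number above the control median was 5 for miR-181d and miR-181b-3p, 3 for miR-181b-5p, miR-181c-5p and miR-181a-2-3p, 2 for miR-181a-5p and miR-181c-3p, and 1 for miR-181a-3p. Over all tested miRNAs, 49.3% had at least 5.

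On the log2(RPM + 1) scale, which understates changes of low miRNAs, limma with a trend was fitted to all 481 miRNAs whose mean over the 12 fetuses reached 1 RPM, and a Benjamini-Hochberg adjusted p under 0.05 was called. All 8 members passed that filter and 0 of 8 were called, against 13 of 481 over all miRNAs (2.7%). At an unadjusted p under 0.05 the count was also 0 of 8, while of the 481 miRNAs 93 were higher and 12 lower. On recovered whole reads, edgeR and voom called 0 of 8 members and DESeq2 called 0 of the 7 to which it gave an adjusted p. Over all miRNAs edgeR called 3, voom 3 and DESeq2 8. The log2 difference of miR-181a-5p was 0.08 ± 0.15 (SE, limma adjusted p = 0.780) with a 95% interval of -0.23 to 0.40. That of miR-181c-5p was 0.013 ± 0.14 (adjusted p = 0.970; interval -0.28 to 0.31). miR-181b-5p and miR-181d had 0.15 each (adjusted p = 0.562 for both), with intervals of -0.14 to 0.44 and -0.14 to 0.45.

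Of the passengers, miR-181b-3p had the highest value, 0.43 ± 0.27 (SE, limma adjusted p = 0.364), with an interval of -0.14 to 0.997. miR-181c-3p had 0.11 (adjusted p = 0.761), miR-181a-3p 0.038 (adjusted p = 0.922) and miR-181a-2-3p -0.12 (adjusted p = 0.775). In bulk tissue, fewer cells of a type and less RNA per cell cannot be told apart in any of these values. The authors' deposited table gives unadjusted p-values of 0.624 for miR-181a-5p, 0.953 for miR-181c-5p, 0.296 for miR-181d and 0.148 for miR-181b-3p. For miR-181b-3p the authors' deposited table also gives 0.0502 in females and 0.888 in males.

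RPM is a share, and most miRNAs pointed up in MNR: the median log2 difference over the 481 tested miRNAs was 0.23 and 78.4% were above 0. The members' median was 0.10. Against the median of all, 1 of 8 members (miR-181b-3p) lay above it and 7 lay below it. Under median-ratio scaling, which brought the median of all miRNAs to 0.032, the log2 differences of miR-181a-5p and miR-181c-5p were -0.14 and -0.21 (limma adjusted p = 0.755 and 0.562) and 7 of 8 members were below 0. Under that scaling the calls over all miRNAs were 1 higher and 2 lower, against 12 higher and 1 lower in RPM, and none was a member.

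**Figure D2:**
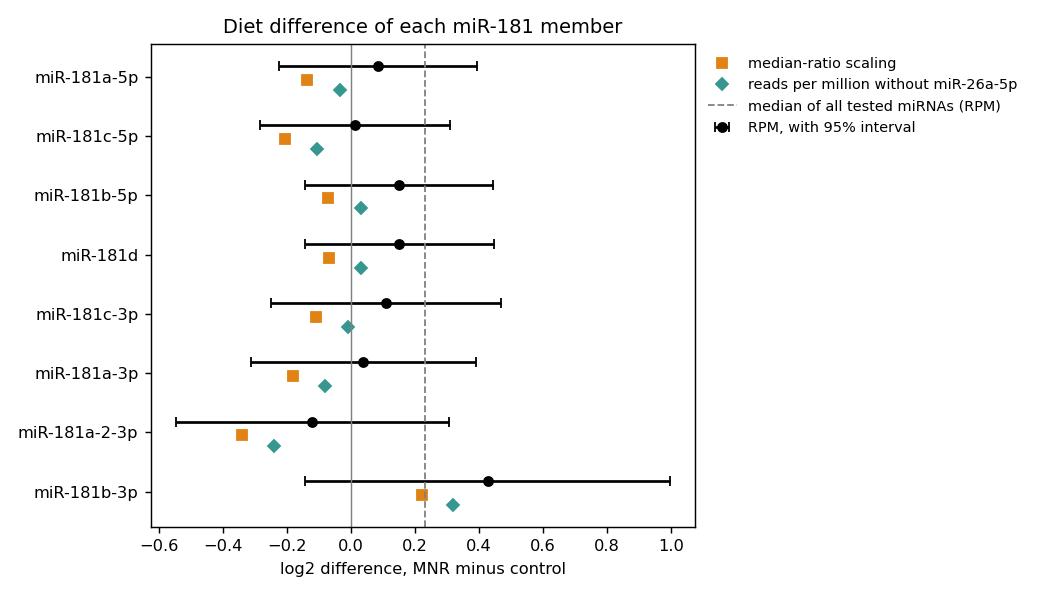
Log2 difference between diets (MNR minus control) of each miR-181 member. Black points with bars are limma estimates in RPM with 95% intervals, orange squares the same after median-ratio scaling, and green diamonds after leaving the reads of miR-26a-5p out of the total; the dashed line is the median of all tested miRNAs, 0.23. Every interval includes 0, and 6 of the 8 estimates lie above 0 in RPM and below 0 after median-ratio scaling.

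A single control fetus was the lowest for most members. Control replicate 3 held the lowest level of 5 of the 8, among them miR-181a-5p at 47458 RPM, where the next control lay at 62353 RPM. Its library was also the one with 148140 RPM of miR-26a-5p. The share of all tested miRNAs with their lowest level in this library was not computed, so the count of members cannot be read as a trait of the family. With the reads of miR-26a-5p left out of every total, a choice made after the data were seen, control replicate 3 had 67438 RPM of miR-181a-5p, still the lowest of the 12, and the group means were 80979 ± 7392 RPM in MNR fetuses and 83248 ± 10373 RPM in control fetuses (SD, n = 6 a diet). Without control replicate 3 the log2 difference of miR-181a-5p in RPM was -0.027 (limma adjusted p = 0.915). Those of miR-181b-5p and miR-181d were 0.034 and 0.043 (limma adjusted p = 0.878 and 0.851). In that fit 0 members were called, against 1 over all miRNAs.

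The guides were less spread between fetuses of the same diet than the median miRNA. Their within-diet SD on the log2 scale was 0.24 for miR-181a-5p, 0.23 for miR-181b-5p, 0.23 for miR-181c-5p and 0.23 for miR-181d, against a median of 0.42 over the 481 tested miRNAs. Between 11.2 and 14.1% of the tested miRNAs had a smaller SD than these guides. The tested miRNAs reach down to a mean of 1 RPM, far below the guides. Whether the guides are less spread than miRNAs of a like level was not tested. The passengers were more spread, at 0.31 for miR-181a-3p, 0.32 for miR-181c-3p, 0.37 for miR-181a-2-3p and 0.46 for miR-181b-3p. miR-181b-3p, the most spread, was also the member with fewest reads.

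Diet was also compared within each sex, in a single limma fit of 4 cells (sex and diet), 3 fetuses each. No member was called in females (0 of 8, against 0 of 481 over all miRNAs, 0%) or in males (0 of 8, against 8 of 481, 1.66%). At an unadjusted p under 0.05 the counts were 1 of 8 in females and 0 of 8 in males, against 49 and 79 of 481. The 1 member was miR-181b-3p. It had 25.7, 16.4 and 23.2 RPM in MNR females, against 15.4, 12.7 and 7.90 RPM in control females. In males it had 13.9, 13.5 and 11.3 RPM in MNR, against 19.04, 13.4 and 7.80 RPM in controls.

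In females every MNR value of miR-181b-3p lay above every control value, as did those of 71 of 481 tested miRNAs (14.8%). No member had every MNR value below every control value in females, against 1.25% of tested miRNAs. In males no member was separated upward or downward, against 19.3% and 4.37% of tested miRNAs. Its log2 difference was 0.83 ± 0.37 in females (SE, limma adjusted p = 0.441) and 0.023 ± 0.37 in males (adjusted p = 0.997), and the female value rests on 15 to 34 reads per female library. The test of the difference between sexes gave 0.81 ± 0.52 (SE, limma adjusted p = 0.909). For that difference 0 of 8 members were called, as were 0 of 481 miRNAs (0%), and at an unadjusted p under 0.05 the counts were 0 of 8 and 24 of 481. The guides differed between diets by 0.14, 0.31, 0.025 and 0.30 in females for miR-181a-5p, miR-181b-5p, miR-181c-5p and miR-181d, and by 0.029, -0.0069, 0.0014 and 0.0053 in males (log2). Without control replicate 3, a female, 3 of 8 members were above 0 in females, against 7 of 8 with it.

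Between the sexes themselves, 0 of 8 members and 0 of 481 miRNAs (0%) were called with limma, and at an unadjusted p under 0.05 the counts were 1 of 8 and 17 of 481. The 1 member was miR-181a-2-3p, which averaged 117 ± 22.9 RPM in females and 158 ± 26.6 RPM in males (SD, n = 6 per sex), a log2 difference of -0.45 ± 0.18 (SE, limma adjusted p = 0.987). The sexes overlapped, from 74.4 to 138 RPM in females and from 116 to 188 RPM in males. The other passenger of the miR-181a hairpins, miR-181a-3p, averaged 1470 RPM in females and 1475 RPM in males.

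The share of passenger reads, as counted, differed between the hairpins. Reads on the 3p arm, as a share of both arms, were 12.8 ± 0.84% in MNR fetuses and 12.1 ± 1.65% in control fetuses for hsa-mir-181c (SD, n = 6 a diet). For hsa-mir-181a-1 the share was 1.94 ± 0.10% in MNR and 2.01 ± 0.19% in controls, for hsa-mir-181b-1 0.56 ± 0.20% and 0.44 ± 0.11%, and for hsa-mir-181a-2 0.18 ± 0.059% and 0.20 ± 0.043%. Over the 160 hairpins whose arms both averaged 1 RPM or more, the minor arm held a median of 4.94% (quartiles 0.759 and 16.8%). The share of mir-181c, whose guide has a single entry, lay above that median. The 160 also include hairpins whose guide has several entries, such as mir-181a-1. Their shares may be too low, so the median is not a like background for mir-181c. The entries of miR-181a-5p under mir-181a-1 and mir-181a-2 held nearly equal counts. Where these are the same reads, and likewise for miR-181b-5p under mir-181b-1 and mir-181b-2, the share printed for a hairpin is a lower bound and does not place it among the 160. mir-181b-2 and mir-181d have 1 mature name each in the table and gave no arm share.

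**Figure D3:**
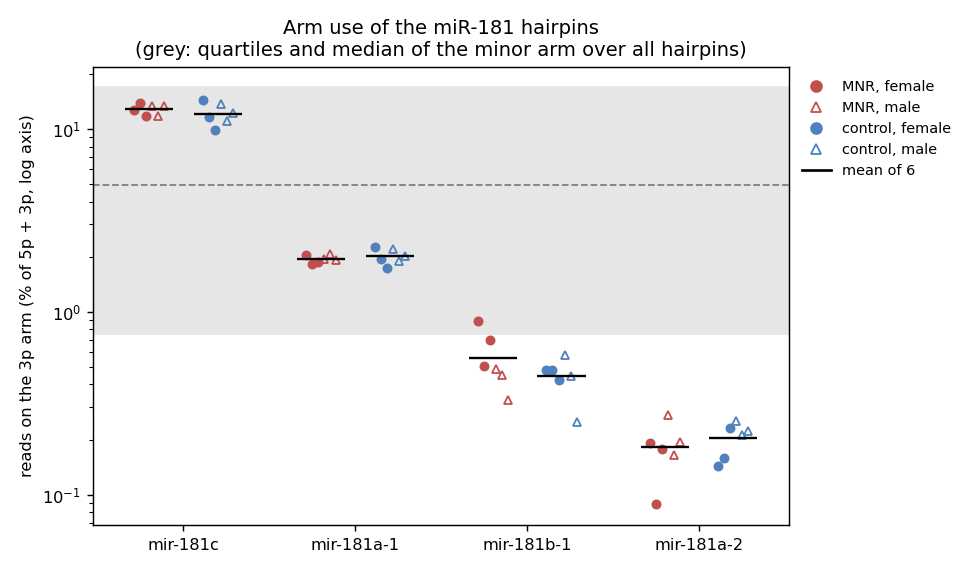
Reads on the 3p arm as a percentage of both arms (log axis) for the 4 miR-181 hairpins with both arms listed, 1 point per fetus, MNR left of control; the grey band and dashed line show the quartiles and median of the minor arm over 160 hairpins. As counted, mir-181c averages 12.4%, mir-181a-1 1.97%, mir-181b-1 0.50% and mir-181a-2 0.19% over the 12 fetuses. All but mir-181c may be lower bounds, and the band and median include such hairpins.

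Arm use was compared between diets with a limma fit to the log2 ratio of 3p to 5p RPM in all 160 hairpins. Since 1 RPM was added to both arms, the ratio of a low arm can still move with the scaling of a library. For mir-181b-1 the log2 difference between diets was 0.28, and 0.18 with 5 RPM added instead. None of the 4 miR-181 hairpins was called, against 3 of 160 (1.88%) over all hairpins, and at an unadjusted p under 0.05 the counts were 0 of 4 and 25 of 160. Only mir-181c has a guide with a single entry. The 5p reads of mir-181a-1, mir-181a-2 and mir-181b-1 may also come from another hairpin of the family, so their ratios need not measure arm use alone. With nearly equal 5p counts, the ratios of mir-181a-1 and mir-181a-2 are also not independent. The log2 differences in arm ratio were 0.097 ± 0.11 for mir-181c, -0.047 ± 0.095 for mir-181a-1, 0.28 ± 0.26 for mir-181b-1 and -0.21 ± 0.21 for mir-181a-2 (SE, limma adjusted p = 0.733, 0.879, 0.672 and 0.681). For mir-181c the 95% interval was -0.13 to 0.32 and for mir-181a-1 -0.24 to 0.15, while those of mir-181b-1 (-0.26 to 0.82) and mir-181a-2 (-0.64 to 0.23) were wider.

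The balance within the family was followed through 3 ratios within the same library. The first compares the summed guides of mir-181c and mir-181d with those of the other clusters. Single guides dominate both sums over the 12 fetuses: miR-181c-5p held 10503 of 12391 RPM and miR-181a-5p 72900 of 76472 RPM. In log2(RPM + 1), miR-181c-5p and miR-181d had a Pearson correlation of 0.467 over the 12 fetuses. It was -0.012 without control replicates 3 and 6, 0.796 within MNR and 0.417 within controls. The summed guides miR-181c-5p and miR-181d were 0.149, 0.154, 0.156, 0.158, 0.169 and 0.170 of the summed guides miR-181a-5p and miR-181b-5p in MNR fetuses, and 0.149, 0.155, 0.157, 0.172, 0.175 and 0.188 in control fetuses, sorted from low to high. miR-181c-5p and miR-181d together made up 13.7 ± 0.63% of the guide reads of MNR fetuses and 14.2 ± 1.06% of those of control fetuses (SD, n = 6 a diet). The diets overlapped, and the mean log2 ratio differed by -0.057 (two-sided exact permutation p = 0.355, and 0.561 when adjusted over 3 ratios; the smallest p that 924 splits allow is 0.00216).

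The ratio of miR-181b-5p to miR-181a-5p lay between 0.0456 and 0.0548 in MNR and between 0.0379 and 0.0601 in controls, a mean log2 difference of 0.066 (exact permutation p = 0.539, adjusted p = 0.561). The ratio of miR-181a-2-3p to miR-181a-3p sets the passenger of mir-181a-2 against that of mir-181a-1 and was taken with 1 RPM added to both. It lay between 0.0486 and 0.140 in MNR and between 0.0627 and 0.131 in controls, a mean log2 difference of -0.16 (exact permutation p = 0.561, adjusted p = 0.561). It was the most variable of the 3 ratios, with an SD of 0.50 in MNR and 0.39 in controls on the log2 scale, against 0.076 and 0.13 for the cluster ratio. MNR replicate 2 was the lowest fetus and MNR replicate 4 the highest.

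**Figure D4:**
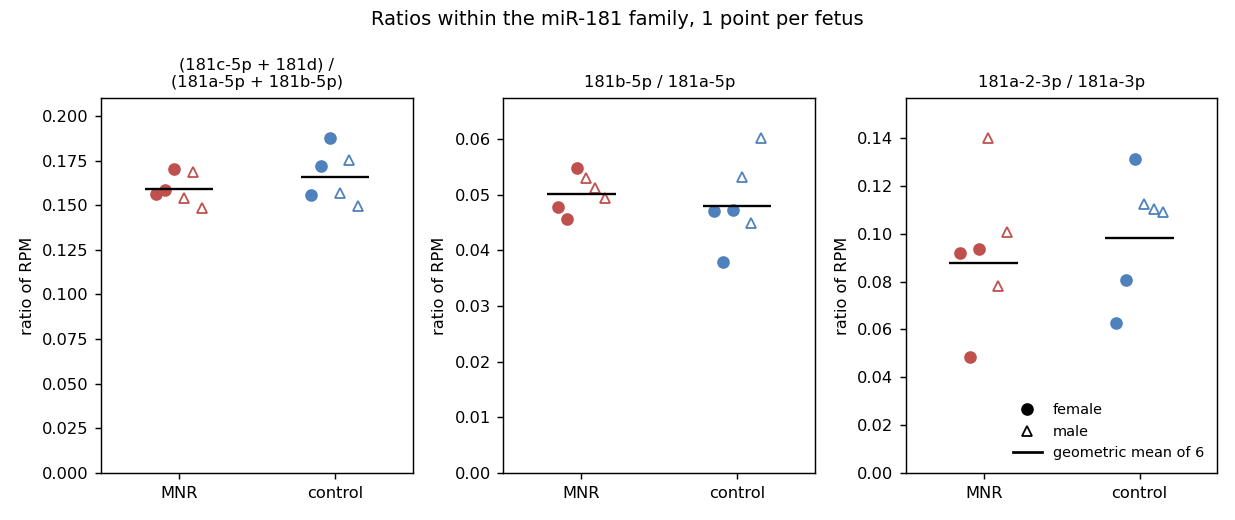
Ratios of RPM within the miR-181 family, 1 point per fetus with MNR left of control, filled circles for females and open triangles for males, and a line at the geometric mean of 6; all axes start at 0. The cluster ratio on the left stays between 0.149 and 0.188 in all 12 fetuses, and the diets overlap in all 3 panels.

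The deposited table also shows how far reads can be assigned to a hairpin. The miR-181a-5p counts of the mir-181a-1 and mir-181a-2 entries differed by at most 2 reads in any library. For miR-181b-5p the mir-181b-2 entry held more reads than the mir-181b-1 entry in every fetus, by 16.5 ± 1.04% of its reads in MNR fetuses and 16.6 ± 1.19% in control fetuses (SD, n = 6 a diet). Counts alone do not show whether the remaining reads are the same reads in both entries.

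Across fetuses, miR-181c-3p was the member that followed miR-181a-5p most closely. Over the 12 libraries, and as a description, log2(RPM + 1) of miR-181c-3p and miR-181a-5p had a Pearson correlation of 0.973 and a Spearman correlation of 0.972. Without control replicates 3 and 6, the libraries farthest from the median of miR-181a-5p, the Pearson correlation was 0.924, and it was 0.955 within MNR and 0.976 within controls. With its own passenger miR-181a-3p, miR-181a-5p had 0.937 (0.740 without those libraries, 0.832 within MNR and 0.967 within controls), and with miR-181c-5p 0.846 (0.774, 0.812 and 0.864). With miR-181b-5p it had 0.740 (0.170 without those libraries, 0.707 within MNR and 0.740 within controls). With miR-181a-2-3p it had -0.003 over all fetuses, -0.428 without those libraries, -0.538 within MNR and 0.423 within controls, so the sign was not the same. All values of a library share its depth and total.

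Outside the family, among miRNAs that averaged 10 RPM or more, those most correlated with miR-181a-5p were miR-101-3p (Pearson 0.798, Spearman 0.790), miR-20a-5p (0.797 and 0.518), miR-9-5p (0.770 and 0.720), miR-484 (0.767 and 0.438) and miR-92a-3p (0.754 and 0.601). Without control replicates 3 and 6 these Pearson values were 0.769, 0.337, 0.627, 0.060 and 0.049. Within MNR, which holds neither library, they were 0.933, 0.591, 0.747, 0.017 and 0.647, and within controls 0.778, 0.833, 0.844, 0.948 and 0.828. For miR-181c-5p the list was miR-101-3p (0.873 and 0.804), miR-454-3p (0.765 and 0.573), miR-340-5p (0.760 and 0.629), miR-301a-3p (0.745 and 0.657) and miR-30d-5p (0.741 and 0.650). Without the same libraries the Pearson values were 0.827, 0.281, 0.444, 0.648 and 0.547. Within MNR they were 0.851, -0.806, 0.307, 0.190 and -0.144, and within controls 0.904, 0.970, 0.967, 0.963 and 0.970. For miR-454-3p and miR-30d-5p the sign was thus not the same in both. Each of these values rests on 6 fetuses, and the control values include control replicates 3 and 6. A difference in correlation between diets was not tested. miR-101-3p, at 4107 RPM on average, led both lists. These were picked as the highest of many and carry no test.

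The authors' pooled read count per entry covers more than these 12 libraries, and the labels do not say where the further reads come from. The 12 cortex libraries hold 15411512 of 91107548 pooled reads, or 16.9%. They hold a higher share of every member than of all reads, from 22.03% of miR-181a-2-3p and 35.9% of miR-181a-5p to 70.8% of miR-181c-5p, 77.3% of miR-181c-3p and 78.5% of miR-181d. How many of all entries are likewise higher in the cortex libraries was not computed, so this cannot be read as a trait of the family. miR-181a-5p stood at 72890 RPM in the pooled cortex libraries and 26516 in the further reads, a ratio of 2.75. For miR-181b-5p the ratio was 6.14, for miR-181c-5p 11.9 and for miR-181d 17.9.

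The passengers of the miR-181a hairpins differed in this. miR-181a-3p stood at 1460 RPM in the cortex libraries and 183 in the further reads (ratio 7.97), whereas miR-181a-2-3p stood at 134 and 96.7 (ratio 1.39). miR-181a-3p was 10.9 times miR-181a-2-3p in cortex and 1.89 times in the further reads. The summed guides miR-181c-5p and miR-181d were 0.164 of miR-181a-5p and miR-181b-5p in cortex and 0.0370 in the further reads. These are single pooled values without replicates, so no error or test can be given, and library and tissue cannot be told apart.

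**Figure D5:**
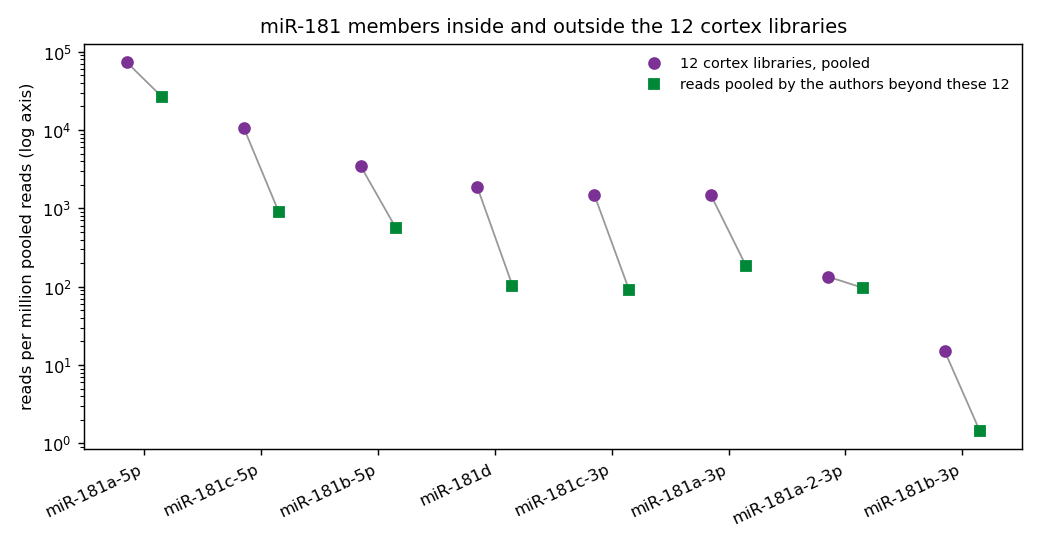
RPM of the pooled reads (log axis) of each miR-181 member in the 12 cortex libraries (circles) and in the reads that the authors pooled beyond them (squares), joined by a line; single pooled values with no error. All 8 members are higher in the cortex libraries, by 1.39 times for miR-181a-2-3p and 17.9 times for miR-181d. The share of all entries that are higher there was not computed.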

How the data were processed

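The libraries were made from column-purified total RNA with Illumina's small RNA kit, per the labels' protocols. The deposited table pairs human miRBase mature names with precursors, so human names stand for the matching baboon miRNAs; the read aligner is not given in the sources used here, and the submitters' processing notes name hg18 without a role. The authors deposited RPM for each fetus, per the file headers, which are levels per 1000000 counted reads. The authors also deposited 1 read count for each entry over pooled libraries, and p-values of 3 diet comparisons without adjustment. RPM steps gave whole reads for 100% of values, within 0.0051 RPM. A mature miRNA with several hairpins has several entries, often of nearly equal counts. Entries other than the one with most reads made up 38.5 to 44.3% of the summed reads, and the RPM total includes them.

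Diet, sex and their difference were tested with limma 3.58.1 (R 4.3.3) with a trend on log2(RPM + 1) of 481 miRNAs whose mean reached 1 RPM, Benjamini-Hochberg adjusted over all of them; arm ratios were fitted over 160 hairpins in the same way, with the trend on the level of the minor arm. Ratios were compared with exact permutation tests. The fits were tested on simulated data. Alternatives for diet over all fetuses were other scalings, pseudocounts of 0.1 and 5, other filters, entries summed, sex as a term, leaving out each fetus, and edgeR 4.0.16, DESeq2 1.42.0 and voom on recovered reads. The sex contrasts were rerun with median-ratio scaling, a pseudocount of 5 and each fetus left out, and the arm ratios with a pseudocount of 5, a 10 RPM filter and each fetus left out. The miRNAs named are all family members, the 5 outside miRNAs most correlated with miR-181a-5p and with miR-181c-5p, and the fixed cell type lists. The members and lists were chosen with earlier results of these data known. Sequences of the miRNAs were not used here.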

Additional observations from a re-analysis of the deposited data

How the results depend on the processing

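The count of called members (0 of 8 for diet, for diet within either sex, for the difference between sexes and for sex, and 0 of 4 hairpins for arm use) was 0 under each alternative run for that comparison (25 for diet over all fetuses, 14 for each sex contrast and for arm use, leaving out each fetus included), although DESeq2 gave no adjusted p for miR-181b-3p. Over all miRNAs 13 were called for diet, against 3 with median-ratio or TMM scaling, 6 with entries summed or a pseudocount of 0.1, 1 with a pseudocount of 5 or no filter, 3 with edgeR, 8 with DESeq2, 3 with voom, 7 with sex as a term, 0 without miR-26a-5p (an alternative chosen after seeing the data), 17 with each mature name counted once in the total, 16 with a filter of 10 RPM, and 1 to 26 with 1 fetus left out.

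Of 297 recomputed member, arm and ratio values, 252 kept their direction and 45 changed sign, none past the threshold; the common shift of all miRNAs under the scalings (median log2 difference 0.23 in RPM) is part of these sign changes by construction. For miR-181a-5p, miR-181b-5p, miR-181c-5p, miR-181d, miR-181a-3p and miR-181c-3p, in this order, the log2 differences were -0.14, -0.071, -0.21, -0.070, -0.18 and -0.11 with median-ratio scaling, -0.12, -0.054, -0.19, -0.053, -0.17 and -0.095 with TMM, -0.11, -0.047, -0.19, -0.032, -0.17 and -0.097 with edgeR, -0.13, -0.077, -0.21, -0.060, -0.20 and -0.12 with DESeq2, and -0.11, -0.039, -0.18, -0.039, -0.16 and -0.088 with voom. Without miR-26a-5p they were -0.035 for miR-181a-5p, -0.11 for miR-181c-5p, -0.082 for miR-181a-3p and -0.0097 for miR-181c-3p. With each fetus left out the ranges were -0.027 to 0.13 (miR-181a-5p), -0.060 to 0.078 (miR-181c-5p), -0.11 to 0.12 (miR-181a-3p), -0.22 to 0.035 (miR-181a-2-3p) and -0.025 to 0.20 (miR-181c-3p), and for the ratios -0.0018 to 0.13 (miR-181b-5p to miR-181a-5p) and -0.29 to 0.013 (miR-181a-2-3p to miR-181a-3p).

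No paired analysis was possible because the labels give no replicate numbers or mothers that join fetuses of both diets. Depth limits miR-181b-3p, at 4 to 34 reads per library; the 95% intervals of the guides' diet differences reach from -0.28 to 0.45 in RPM and from -0.52 to 0.24 with median-ratio scaling (log2).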
